A study of Mus musculus with 2 samples.

Results

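Retnlg-high neutrophils were 2439 of 19826 cells kept from tumors of mice given control IgG or an antibody against CD3L1 (ITPRIPL1), a ligand of the CD3 complex on T cells. They were picked from single-cell RNA counts, in which a UMI (unique molecular identifier) stands for 1 captured RNA molecule. A kept barcode had at least 500 UMIs, over 200 and under 6000 genes and under 5% mitochondrial UMIs. A Retnlg-high neutrophil held at least 2% of its UMIs in S100a8 and S100a9 together, at least 0.1% in Retnlg, no UMI of Csf1r, and at most 1 of the 4 interferon-response genes Trim30c, Ifit1bl2, Gbp5 and Ddx60. These 8 genes chose the cells, so their levels are given below as a description only. Retnlg-low neutrophils, the nearest class, met the same conditions except that Retnlg stayed under 0.1%, and interferon-response neutrophils held 2 or more of the 4 interferon genes.

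The tumors grew from 143B, an established human osteosarcoma line, in nude mice, which have no thymus and few T cells but keep neutrophils, macrophages and NK cells. The mice were females of 4 weeks when the tumor cells were injected. They received 10 mg/kg of a human IgG1 isotype control or of anti-CD3L1 every 3 days, 4 times from day 7. Each treatment gave 1 droplet library of CD45 bead-enriched cells from 3 pooled tumors, and no deposited file used here ties a cell to its tumor. No comparison between treatments therefore has a replicate, no p-value was computed, and every interval below covers counting error only. Sequencing gave 74850604 UMIs for control IgG and 108246719 for anti-CD3L1. Of the kept barcodes 26 had the same sequence in both libraries, and 2 of these were Retnlg-high neutrophils in both.

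Neutrophils store their proteins in granules that form in a fixed order during maturation in the bone marrow: primary granules first, then specific granules, then gelatinase granules and secretory vesicles. S100a8 and S100a9 encode the subunits of calprotectin, the main cytosolic protein of the cell, and Retnlg encodes a resistin-like protein that in mice is typical of mature neutrophils. Cxcr2, the receptor of Cxcl1 and Cxcl2, and Csf3r, the G-CSF receptor, carry the signals that release mature cells into blood and keep them alive.

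Promoter sequences are shown for Retnlg, which defines the cells, and for 3 granule genes that the results turn on (Mmp8, Ngp and Ltf). C/EBP transcription factors, C/EBP epsilon among them, are known to drive specific granule genes. The windows end at the annotated RefSeq start of the gene or, for Ngp and Ltf, before the first exon annotated by GENCODE, and were read 5′ to 3′ on the + strand of GRCm38.p6 (chr16:48872458-48872607, chr9:7558279-7558428, chr9:110419658-110419746 and chr9:111019142-111019270). Capitals mark the C/EBP-type motif TTGCNNAA on either strand.
Retnlg: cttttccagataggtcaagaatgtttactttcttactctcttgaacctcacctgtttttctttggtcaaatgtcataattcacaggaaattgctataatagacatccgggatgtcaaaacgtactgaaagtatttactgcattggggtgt
Mmp8: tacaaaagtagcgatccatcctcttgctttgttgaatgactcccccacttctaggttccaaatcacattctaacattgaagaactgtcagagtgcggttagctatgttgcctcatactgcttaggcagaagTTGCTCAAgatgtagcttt
Ngp: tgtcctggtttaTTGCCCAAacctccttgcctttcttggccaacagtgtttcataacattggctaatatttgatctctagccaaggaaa
Ltf: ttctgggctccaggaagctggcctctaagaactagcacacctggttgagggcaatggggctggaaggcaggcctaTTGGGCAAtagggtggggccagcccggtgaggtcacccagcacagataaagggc
The motif was present in the Mmp8, Ngp and Ltf windows, where it began 19, 138 and 75 bases before the start, and was not found in the Retnlg window. Of 32851 annotated promoters 5.46% held it in the 150 bases before the start. A match to these letters is a description and not evidence of binding.

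Retnlg-high neutrophils were far fewer after anti-CD3L1 treatment. After control IgG they numbered 2256 of 8557 kept cells, or 26.4%, with a 95% interval from the exact binomial method of 25.4 to 27.3%. After anti-CD3L1 they numbered 183 of 11269, or 1.62% (1.40 to 1.87%), a difference of -24.7 percentage points (-25.7 to -23.8). All cells over the S100a8 and S100a9 limit made up 67.4% and 4.57% of kept cells in the same order. Within the neutrophils, meaning cells over that limit with no Csf1r UMI, the Retnlg-high class took 59.6% (58.0 to 61.2%) of 3785 cells in control IgG and 47.0% (42.0 to 52.1%) of 389 in anti-CD3L1. The Retnlg-low class took 29.3% and 42.7%, and the interferon-response class 11.1% and 10.3%. Among neutrophils the Retnlg-high share therefore differed by -12.6 points (-17.7 to -7.35) and the interferon-response share by -0.81 points (-3.65 to 2.74). Interferon-response cells were chosen by detection of genes, which depends on depth, and they held a median of 4944 UMIs in control IgG and 2726.5 in anti-CD3L1. Their share at equal depth was not tested, so its near equality is not read as an unchanged class. With 1 bead-enriched library a treatment, fewer neutrophils and more of the other cells cannot be told apart.

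**Figure D1:**
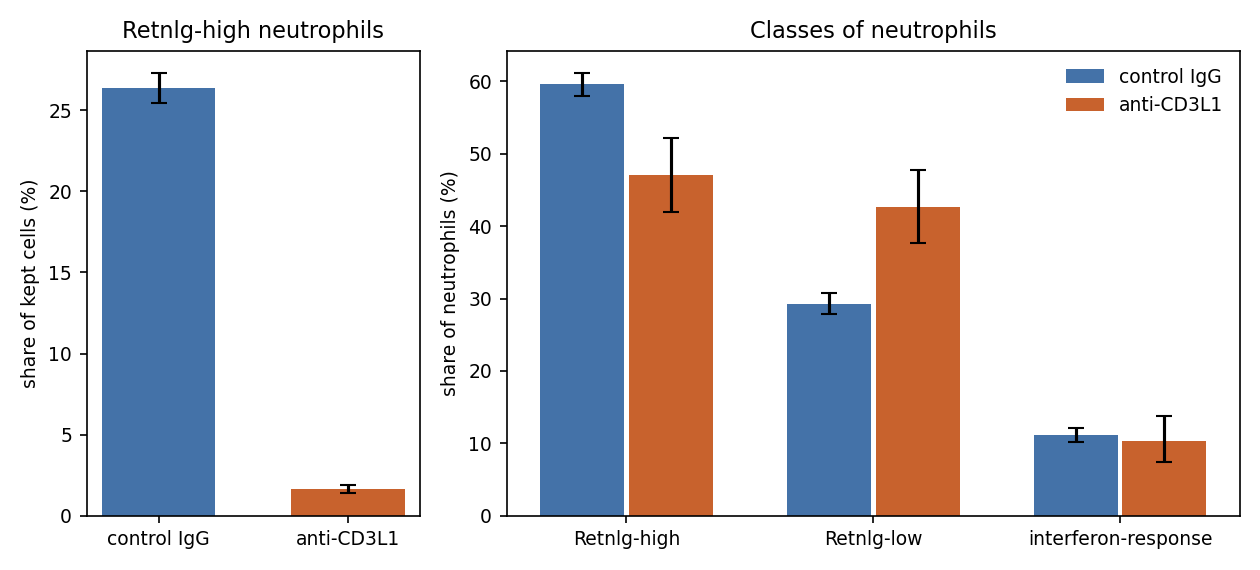
Share of Retnlg-high neutrophils among all kept cells (left) and of the Retnlg-high, Retnlg-low and interferon-response classes among neutrophils (right), in percent, for the control IgG and anti-CD3L1 libraries, 1 library each. Bars are shares and error bars exact binomial 95% intervals, and the left panel falls from 26.4% to 1.62%.

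The Csf1r step bears on these numbers. Csf1r, the receptor that marks monocytes and macrophages, had at least 1 UMI in 1980 of 5765 cells over the S100 limit in control IgG (34.3%) and in 126 of 515 in anti-CD3L1 (24.5%). Cells that met every other condition but held Csf1r numbered 1056 and 55, and 701 and 31 of these held exactly 1 UMI. In control IgG they held Csf3r at 1264 against 1186 CPM in the chosen cells and Cxcr2 at 385 against 364 CPM, where CPM is the number of UMIs of a gene scaled to 1000000 UMIs of the class. Ly6g was at 97.9 against 144 CPM, the macrophage gene C1qa at 34.3 against 13.4 CPM and the monocyte gene Vcan at 20.3 against 8.16 CPM. In anti-CD3L1 Ly6g was at 184 against 178 CPM and Cxcr2 at 321 against 330 CPM, while Csf3r was at 1045 against 1587 CPM and C1qa at 515 against 52.8 CPM. With any number of Csf1r UMIs allowed, the difference in share was -36.6 points.

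S100a8, S100a9 and Retnlg had to be present by the rule, so the label neutrophil was checked on the other 3 identity markers, Ly6g, Cxcr2 and Csf3r. As a description, S100a8 and S100a9 stood at 83970 and 118872 CPM in control IgG and at 49672 and 77004 CPM in anti-CD3L1. Retnlg stood at 8535 CPM (exact Poisson interval 8482 to 8589) in control IgG and at 7319 CPM (7073 to 7573) in anti-CD3L1. Among cells under the S100 limit, Cxcr2 was at 7.94 CPM in control IgG and 2.28 CPM in anti-CD3L1, against 364 and 330 CPM in the Retnlg-high cells. Csf3r, at 1186 and 1587 CPM, and Ly6g, the surface protein used to sort mouse neutrophils, at 144 and 178 CPM, were not used in the choice and were present in both libraries. Primary granule genes, which mark immature cells, were near 0: Mpo, Elane, Prtn3, Ctsg, Ms4a3 and Bpi together gave 2.7 CPM in control IgG and 2.2 CPM in anti-CD3L1, where 5 of the 6 had no UMI.

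Cells differed in depth, which limits shares of cells with a UMI. The median Retnlg-high neutrophil held 4592 UMIs and 1137 genes in control IgG and 2175 UMIs and 821 genes in anti-CD3L1. After thinning each cell to 1000 UMIs, which left out 53 and 10 shallower cells, Csf3r was detected in 65.4% (63.3 to 67.4%) and 82.7% (76.2 to 88.0%), and Cxcr2 in 25.3% (23.5 to 27.2%) and 28.9% (22.3 to 36.3%). Ly6g was detected in 9.76% (8.55 to 11.1%) and 5.78% (2.81 to 10.4%). In cells under the S100 limit, thinned alike, Csf3r reached 13.4% and 6.27%, Cxcr2 1.55% and 0.30%, and Ly6g 0.26% and 0.04%. Those cells may express some of these genes themselves, so their shares are not free RNA alone. The difference in Csf3r was 17.3 points (10.7 to 22.6), while those of Cxcr2 (3.57, -2.94 to 10.9) and Ly6g (-3.98, -6.90 to 0.70) had intervals that included 0. Without thinning Csf3r was detected in 95.7% and 92.3% of cells, so its direction was opposite.

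The 2 genes of calprotectin and Retnlg varied widely between cells. The share of S100a8 and S100a9 had a median of 19.4% in control IgG, with 5th and 95th percentiles of 6.17% and 32.7%. In anti-CD3L1 the median was 10.8%, with percentiles of 2.54% and 23.0%. Retnlg had a median of 0.52% of UMIs in control IgG and 0.43% in anti-CD3L1, and reached 5.53% and 4.66%. Just outside the Retnlg limit, at 0.08 to 0.1%, lay 114 and 9 cells, with Ly6g at 34.1 and 45.7 CPM. Just inside, at 0.1 to 0.12%, lay 89 and 12 cells, with Ly6g at 49.5 and 167 CPM. Just inside the S100 limit, at 2 to 3%, lay 24 and 13 cells, with Ly6g at 33.7 and 0 CPM, Csf3r at 976 and 1406 CPM and Apoe at 101 and 352 CPM. Just outside it, at 1 to 2%, lay 22 and 13 cells. They held Ly6g at 65.7 and 68.5 CPM, Csf3r at 986 and 1005 CPM and Apoe at 110 and 274 CPM. Near the S100 limit the libraries differed, since 3.24% of the cells in control IgG and 18.6% in anti-CD3L1 had between 2% and 5%. Barcodes ranked 45000 to 90000 by UMIs, taken as empty droplets, held 6.81% of S100a8 and S100a9 in control IgG and 0.138% in anti-CD3L1, and the part of this free RNA in the shares was not tested.

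**Figure D2:**
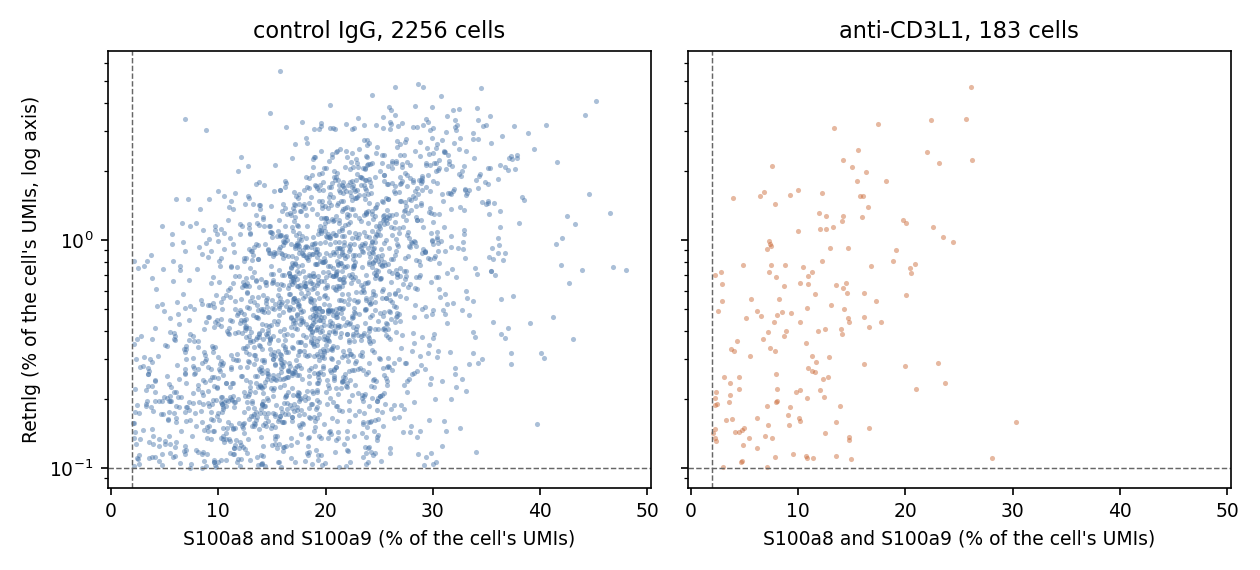
Each point is a Retnlg-high neutrophil, placed by its share of S100a8 and S100a9 UMIs (x axis, percent) and of Retnlg UMIs (y axis, percent, log axis), for control IgG (2256 cells, left) and anti-CD3L1 (183 cells, right). Dashed lines are the limits of 2% and 0.1%, and the anti-CD3L1 cells lie mostly in the lower part of the S100 range, with a median of 10.8% against 19.4%.

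Transcripts of other cell types were low but higher in the anti-CD3L1 cells. The 8 macrophage markers summed to 129 CPM in control IgG and 526 CPM in anti-CD3L1, led by the lipid carrier Apoe in both, and C1qa stood at 13.4 and 52.8 CPM. Empty droplets held these markers at 4337 and 12089 CPM. The 5 monocyte markers summed to 44.3 and 308 CPM, led by Ly6c2, and the 8 dendritic cell markers to 57.1 and 202 CPM, led by the class II genes H2-Ab1 and H2-Aa, with 4 of the 8 at 0 in anti-CD3L1. NK, B, T, eosinophil, fibroblast, endothelial and red cell or platelet markers each stayed under 100 CPM. Of these, the T cell markers summed to 34.4 and 81.4 CPM, nearly all Cd3d, with Cd3e at 0 in both libraries. The eosinophil genes Epx and Prg2 and all 4 basophil and mast cell markers were at 0 as well. C1qa, C1qb and C1qc, set against their level in empty droplets, gave a free RNA share of 3.20% and 3.68% of the UMIs. At least 2 UMIs of macrophage, monocyte, dendritic, NK, B or fibroblast markers were present in 21.7% of the cells in control IgG and 61.7% in anti-CD3L1. Without these cells the share of Retnlg-high neutrophils differed by -20.0 points, and 591 genes were higher and 144 lower by CPM between the libraries.

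Set beside Retnlg-low neutrophils, part of the specific granule genes were at least 2-fold higher in Retnlg-high cells of both libraries, 5 of 8 with all cells (Camp, Cd177, Ltf, Mmp8 and Ngp) and 3 of 8 (Cd177, Mmp8 and Ngp) without the few granule-gene cells described below. Of the 3, only Mmp8 and Ngp then met the minimum of 50 CPM, since Cd177 was under it in both classes of both libraries. Cd177 and Ngp rested on 15 and 7 UMIs in the Retnlg-high cells of anti-CD3L1. Without those cells Camp had log2 ratios of -0.48 and -2.28, the latter on 1 UMI, Ltf -0.53 and 0.94, Lcn2 -0.07 and 0.73 and Pglyrp1 1.02 and 0.55. With all cells the list summed to 12809 against 11503 CPM in control IgG and to 11290 against 2242 CPM in anti-CD3L1. The latter sum includes the granule-gene cells, without which Lcn2 was at 1228 against 741 CPM and Ngp at 17.1 against 5.93 CPM in anti-CD3L1. Of the gelatinase granule genes 0 of 6 were at least 2-fold higher in both libraries, and of the mature neutrophil transcripts 1 of 11. Of 2007 genes with at least 50 CPM, 28 were at least 2-fold higher in control IgG (1.4%) and 38 lower (1.89%), and 47 (2.34%) and 68 (3.39%) in anti-CD3L1. In both libraries 19 were higher (0.947%) and 14 lower (0.698%). Both classes were cut by Retnlg from the same cells, so the values are descriptions and no test was made. The median share of S100a8 and S100a9 differed as well, at 19.4 against 11.1% in control IgG and 10.8 against 6.71% in anti-CD3L1. Ly6g was at 144 CPM in Retnlg-high against 20.04 CPM in Retnlg-low cells of control IgG, and at 178 against 47.4 CPM in anti-CD3L1. Mmp8, the collagenase of specific granules, was at 286 against 94.98 CPM and at 317 against 41.5 CPM. Anxa1, a calcium-dependent phospholipid-binding protein, was at 601 against 237 CPM and at 669 against 196 CPM, and the peptidoglycan-binding granule protein Pglyrp1 at 853 against 389 CPM and at 982 against 507 CPM. The transketolase gene Tkt was at 107 against 35.1 CPM and at 191 against 29.7 CPM. Ifitm6, R3hdm4, Mgst1, Atxn10, Cnn2, Ccl6 and Ngp were higher in the Retnlg-high class as well, by log2 ratios between 1.05 and 8.84. The last is that of Ngp in anti-CD3L1, which rests on 2 UMIs in Retnlg-low cells and has an interval from 6.98 to 11.89.

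Lists counted at 2-fold in both libraries held few genes lower in the Retnlg-high class, as did all 2007 genes, of which 0.698% were lower. At that limit 0 of 12 interleukin-1 and sensing genes, 0 of 8 TNF and NF-kappa-B genes and 1 of 8 adhesion genes were lower. The single genes of lowest ratio included that adhesion gene. The adhesion ligand Icam1 was at 185 CPM in Retnlg-high against 375 CPM in Retnlg-low cells of control IgG, and at 180 against 400 CPM in anti-CD3L1. Il23a, the p19 chain of interleukin-23, was at 70.2 against 172 CPM and at 30.8 against 116 CPM. The C-type lectin receptor Clec4n was at 64.2 against 171 CPM and at 141 against 439 CPM, and Mpeg1, which encodes the pore-forming protein perforin-2, at 85.4 against 181 CPM and at 92.4 against 270 CPM. Cxcl1, Mif, Tgm2, Srsf7, Treml4, Prkce, Nsmce2 and Gm41409 completed the 12 genes of lowest ratio. The receptors Cxcr2 and Csf3r stayed well under 2-fold. Cxcr2 had log2 ratios of 0.29 and -0.21, Csf3r 0.17 and -0.05, and none of the 6 NADPH oxidase subunits passed 2-fold in both libraries. All 7 chemokine genes were measured, and among the 6 with enough UMIs Ccl6 was higher and none was lower past 2-fold in both libraries. Chemokines nevertheless summed to 28604 against 47119 CPM in control IgG and to 14060 against 21016 CPM in anti-CD3L1, with list medians of -0.69 and -0.55 on the log2 scale. Cxcl2 was at 21595 against 34380 CPM and at 10288 against 16257 CPM. The median log2 ratio over all 2007 genes was -0.17 in control IgG and -0.12 in anti-CD3L1, and with it set to 0 the counts in both libraries became 21 higher and 5 lower.

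**Figure D3:**
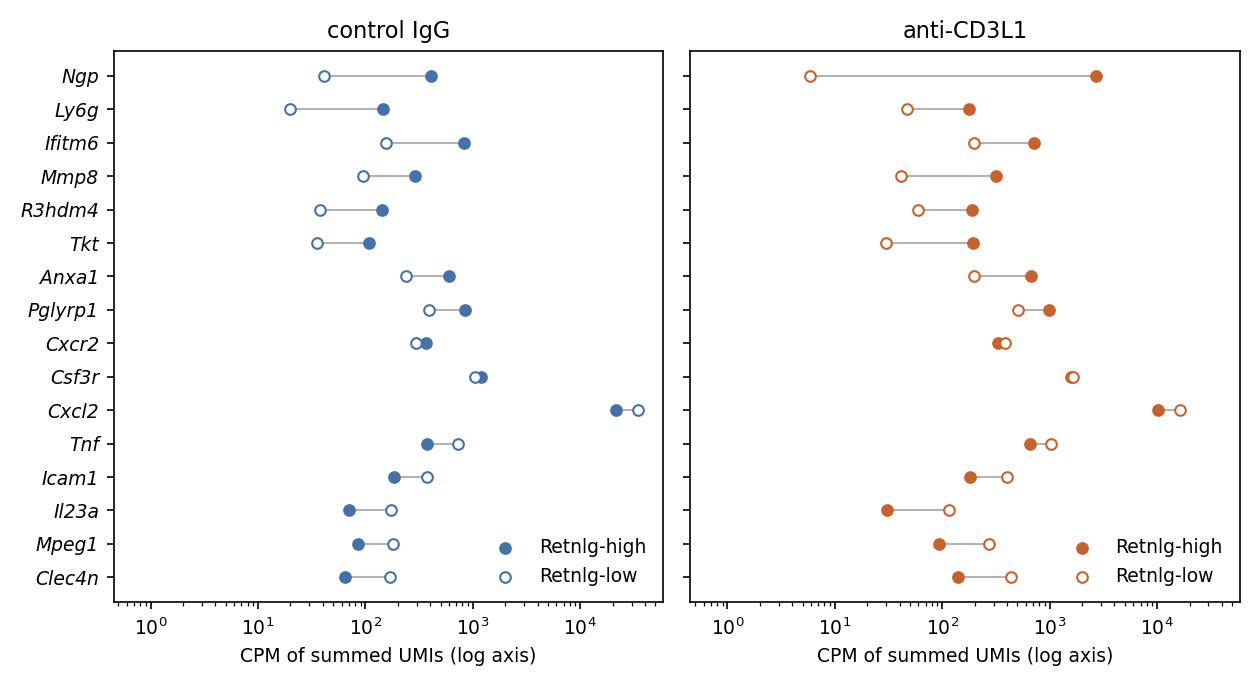
CPM of summed UMIs (x axis, log axis) of 16 genes in Retnlg-high neutrophils (filled) and Retnlg-low neutrophils (open) of control IgG (left) and anti-CD3L1 (right). Genes from Ngp to Pglyrp1 lie higher in the Retnlg-high class, Cxcr2 and Csf3r lie close together, and genes from Cxcl2 to Clec4n lie lower, in both libraries.

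Within the Retnlg-high neutrophils the chemokine list and a number of single genes differed with the amount of Retnlg. The cells of each library were ordered by Retnlg share and divided into 4 groups of equal size, of which the top group held at least 1.05% of UMIs in control IgG and 0.91% in anti-CD3L1. These groups too were cut by Retnlg, and their values are descriptions. Of 1936 genes, 46 were at least 2-fold higher in the top than in the bottom group of control IgG (2.38%) and 80 lower (4.13%), and 189 (9.76%) and 197 (10.2%) in anti-CD3L1, whose groups held 46, 46, 46 and 45 cells. In both libraries 14 were higher (0.723%) and 34 lower (1.76%). Ly6g went from 29.7 over 62.9 and 132 to 313 CPM across the 4 groups in control IgG, and from 143 over 54.5 and 117 to 374 CPM in anti-CD3L1. Of 9 specific granule genes 1 was higher in both libraries, of 5 chemokines 1 was higher and 2 lower, and of 12 interleukin-1 and sensing genes 2 were lower. Mmp8 went from 118 to 520 CPM and from 151 to 858 CPM between the outer groups. In anti-CD3L1 each outer group held 2 of the 4 granule-gene cells described below, and without such cells Mmp8 went from 114 to 445 CPM and from 61.8 CPM (6 UMIs) to 566 CPM (57 UMIs), and Ly6g from 25.9 to 238 CPM and from 10.3 CPM (1 UMI) to 327 CPM (33 UMIs). Prok2, a chemoattractant peptide, went from 492 to 1175 CPM and from 143 to 340 CPM. Without the granule-gene cells Prok2 went from 494 to 1167 CPM in control IgG. In anti-CD3L1 it then stood at 165, 283, 168 and 288 CPM across the 4 groups, under 2-fold between the outer ones. In the other direction Il1a, the alpha form of interleukin-1, went from 647 to 254 CPM and from 183 to 17.0 CPM. The top group of anti-CD3L1 held 117751 UMIs in all, so its Il1a level rests on few UMIs. Hilpda, a lipid droplet protein induced by low oxygen, had log2 ratios of -1.29 and -2.53, and the macrophage growth factor Csf1 -1.37 and -1.24. Chemokines summed to 38521 CPM in the bottom and 22003 CPM in the top group of control IgG, and to 18237 and 7991 CPM in anti-CD3L1, with list medians of -1.002 and -1.32 on the log2 scale. The median cell of the top group was deeper, with 5344 against 3996 UMIs in control IgG and 2360 against 2278 UMIs in anti-CD3L1. Its median share of S100a8 and S100a9 was higher too, at 23.9 against 14.6% in control IgG and 14.2 against 7.14% in anti-CD3L1. Among cells with at least 10% of S100a8 and S100a9, 7 genes were higher and 8 lower in both libraries. Retnlg and S100 levels were not separated. The median log2 ratio of all genes was -0.23 and -0.01 in the same order, and with it set to 0 there were 19 higher and 13 lower in both libraries.

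Specific granule genes showed where the Retnlg-high class was not uniform. Ltf (lactoferrin), Camp (the cathelicidin precursor) and Ngp (neutrophilic granule protein) are made while granules form. In the anti-CD3L1 library these 3 genes gave 2559 UMIs, and 4 of the 183 cells held 99.1% of them. The cells held 1186, 819, 445 and 87 of these UMIs and were deep, with 15092, 10165, 13540 and 6819 UMIs in all, while the cell next in order held 4. In control IgG the 3 genes gave 6522 UMIs, and 96 of 2256 cells held at least 10 of them, together 81.6%. Any UMI of the 3 was present in 28.3% (26.4 to 30.2%) of cells in control IgG and in 9.84% (5.93 to 15.1%) in anti-CD3L1. With each cell thinned to 1000 UMIs, Ngp was detected in 10.3% and 3.47%, a difference of -6.84 points (-9.14 to -2.76).

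The 4 cells also differed in other genes. Summed over them, Chil3, a chitinase-like protein of immature neutrophils and macrophages, was at 1052 CPM, against 2.45 CPM (1 UMI) in the remaining 179 cells. Cebpe, the C/EBP epsilon gene, was at 482 against 2.45 CPM and the proliferation gene Mki67 at 219 against 7.34 CPM. Cxcl2 was at 658 against 11363 CPM and Il1b at 87.7 against 5991 CPM. Mpo and Elane had no UMI in them. In the 96 cells of control IgG Mki67 was at 4.87 CPM against 4.90 CPM in the rest, Cxcl2 at 13193 against 22233 CPM and Camp at 1242 against 7.02 CPM. Mki67 UMIs came from 1 of the 4 cells and Cebpe UMIs from 2. Both are genes of precursors and go against the label mature for the cells that held them. The 4 cells together held Retnlg at 9712 CPM. Without cells of 10 or more such UMIs, 9 genes in place of 19 were at least 2-fold higher than in Retnlg-low cells in both libraries. Ly6g, with log2 ratios of 2.46 and 1.45, Mmp8 with 1.42 and 2.36, Tkt with 1.44 and 2.18 and R3hdm4 with 1.77 and 1.59 were among them, while Ifitm6 and Anxa1 fell under 2-fold in anti-CD3L1, at 0.71 and 0.70. Pglyrp1, which was under 2-fold in anti-CD3L1 with all cells too, was then at 0.55. Cd177, a surface protein of neutrophil subsets, kept a lead in the cells that remained, at 48.1 against 7.74 CPM and at 36.7 against 2.97 CPM.

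**Figure D4:**
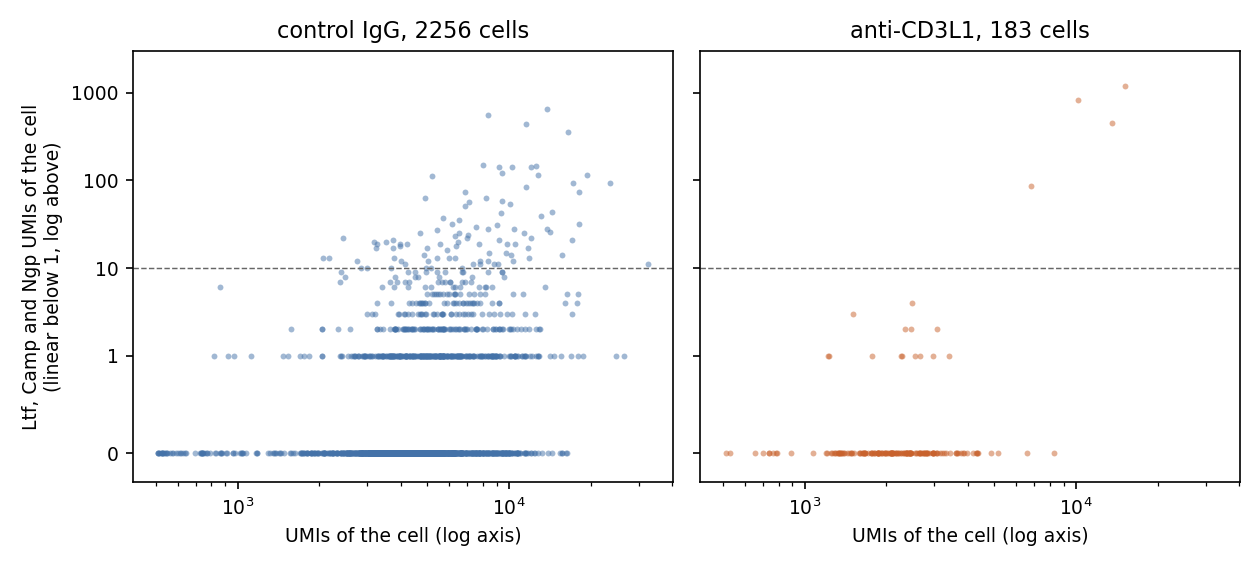
UMIs of Ltf, Camp and Ngp together (y axis, linear below 1 and log above) against all UMIs (x axis, log axis) of each Retnlg-high neutrophil, for control IgG (2256 cells, left) and anti-CD3L1 (183 cells, right). Above the dashed line at 10 UMIs lie 96 cells of control IgG spread over a range and 4 cells of anti-CD3L1 that stand apart.

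Between the treatments, Retnlg-high neutrophils were compared relative to the median gene and by CPM alone. Relative to the median, 6 of 7 chemokine, 6 of 12 interleukin-1 and sensing and 9 of 13 glycolysis genes were at least 2-fold lower in anti-CD3L1. On the same scale 4 of 9 stress genes were at least 2-fold higher. By CPM alone these counts were 4, 3, 3 and 6. Of 2437 genes with at least 50 CPM in either library, 465 were at least 2-fold higher in anti-CD3L1 by CPM (19.1%) and 104 lower (4.27%). Either direction together made up 23.3% of the genes. The median of all 2437 log2 ratios was 0.42, and S100a8 and S100a9 took 20.3% of the UMIs of the class in control IgG and 12.7% in anti-CD3L1. Ratios in parentheses below are log2 ratios relative to this median with their exact 95% intervals, and on that scale 202 genes were at least 2-fold higher (8.29%) and 203 lower (8.33%).

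Chemokine genes stood lowest as a group. Relative to the median, 6 of 7 were at least 2-fold lower and 1 higher, and the list's median was -1.49 on the log2 scale. Cxcl2, the ligand of Cxcr2 that neutrophils release to recruit more of their kind, was at 21595 CPM in control IgG and 10288 CPM in anti-CD3L1, a relative log2 ratio of -1.49 (-1.53 to -1.45). Ccl3 was at 3596 and 1463 CPM (-1.71, -1.83 to -1.60), and Ccl4 at 2658 and 1340 CPM (-1.41, -1.52 to -1.29). Both are chemoattractants of monocytes and macrophages. Cxcl3 was at 289 and 35.2 CPM, and the 16 UMIs in anti-CD3L1 came from 7 cells. Ccl6 was the exception, at 149 and 788 CPM (1.99, 1.82 to 2.15). In cells under the S100 limit Cxcl2 was at 6764 and 5453 CPM and Ccl6 at 97.9 and 473 CPM, and empty droplets held Cxcl2 at 10542 and 4839 CPM. In Retnlg-low neutrophils Cxcl2 was at 34380 and 16257 CPM and Ccl3 at 7276 and 2182 CPM. By CPM without the shift 4 of the 7 were lower past 2-fold, and Cxcl1 and Ccl4 were not.

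Of the interleukin-1 and sensing genes 6 of 12 tested were lower past 2-fold and none higher, with a list median of -0.98. Il1b was at 9741 and 5398 CPM (-1.27, -1.33 to -1.21), and its antagonist Il1rn at 1308 and 816 CPM (-1.10, -1.25 to -0.95). Cd14, the co-receptor for lipopolysaccharide, was at 3474 and 843 CPM (-2.46, -2.61 to -2.32), and Clec4e, the Mincle receptor, at 3289 and 1439 CPM (-1.61, -1.72 to -1.50). Il1a and Myd88 were the other genes of the 6. The decoy receptor Il1r2 (0.14, -0.01 to 0.29) and Tlr2 (0.03, -0.22 to 0.26) had intervals that held the median. By CPM alone 3 of the 12 were lower, Il1a, Cd14 and Clec4e. In Retnlg-low neutrophils Cd14 was at 3464 and 1281 CPM. In cells under the S100 limit Il1b was at 3499 and 1531 CPM and Cd14 at 1369 and 596 CPM. Of the 8 TNF and NF-kappa-B genes Sod2, the mitochondrial superoxide dismutase, was at 1529 and 429 CPM (-2.25, -2.46 to -2.05), and Nfkb1 was lower as well, though by CPM alone only 1 of the 8 was, whereas Tnf was at 374 and 651 CPM (0.38, 0.21 to 0.55).

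Glycolysis and low-oxygen genes were lower in 9 of 13 tested and higher in none, with a list median of -1.16. Pfkfb3, which makes the activator of phosphofructokinase, was at 432 and 172 CPM (-1.75, -2.09 to -1.43). Ldha, lactate dehydrogenase A, was at 751 and 398 CPM (-1.33, -1.55 to -1.12), and the mitophagy gene Bnip3 at 283 and 130 CPM (-1.54, -1.94 to -1.17). Hk2, Pfkl, Gapdh, Pgk1, Eno1 and Egln3 were the others. Hif1a, the oxygen-regulated transcription factor, was at 481 and 577 CPM (-0.15, -0.34 to 0.02). By CPM alone 3 of the 13 passed 2-fold, Hk2, Pfkfb3 and Bnip3. The summed level of the list in cells under the S100 limit was 4908 CPM in control IgG and 3002 CPM in anti-CD3L1, against 6596 and 4298 CPM in the Retnlg-high cells.

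Receptor genes differed by member. Of 9 chemoattractant receptors 4 were lower past 2-fold, or 3 by CPM alone, and none higher. The list summed to 3540 and 2757 CPM in the Retnlg-high cells and to 3785 and 3155 CPM in Retnlg-low cells. It was lower in cells under the S100 limit as well, at 1005 and 543 CPM. Fpr1, the receptor of formylated bacterial peptides, was at 1006 and 268 CPM (-2.32, -2.59 to -2.07), and Fpr2 at 340 and 128 CPM (-1.83, -2.23 to -1.46). Cxcr1 and the leukotriene receptor Ltb4r1 were lower too. Cxcr2 was at 364 and 330 CPM (-0.56, -0.80 to -0.32), C5ar1, the receptor of complement C5a, at 432 and 425 CPM (-0.44, -0.66 to -0.23), and Cxcr4, which retains neutrophils in marrow, at 79.8 and 147 CPM (0.47, 0.09 to 0.83). Of 8 adhesion genes and 6 NADPH oxidase subunits none passed 2-fold either way. Ly6g and Csf3r had relative log2 ratios of -0.11 (-0.45 to 0.21) and 0.00 (-0.11 to 0.11).

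A minority of the stress genes were higher. Of 9 heat shock and stress genes 4 were at least 2-fold higher and none lower, with a list median of 0.84. By CPM alone 6 were higher. Atf3, a stress-induced transcription factor, was at 452 and 1684 CPM (1.48, 1.37 to 1.59), and Ddit3, the CHOP gene, at 168 and 453 CPM (1.02, 0.80 to 1.23), with the UMIs of 2 gene identifiers of that symbol added. Hspa1b was at 125 and 460 CPM (1.46, 1.25 to 1.67), with 56.5% of its UMIs in anti-CD3L1 from 5 cells, and Hsph1 at 12.1 and 52.8 CPM. In Retnlg-low neutrophils Atf3 was at 517 and 2129 CPM. In cells under the S100 limit Atf3 was at 707 and 979 CPM and Hspa1b at 1088 and 789 CPM. Interferon-stimulated genes outside the rule were higher in 2 of 9 tested, or 4 by CPM alone. The rule removed cells by detection of 4 other interferon genes, which depends on depth. The median Retnlg-high cell held 4592 UMIs in control IgG and 2175 in anti-CD3L1. The part of this filter in the rises was not tested. The antiviral gene Rsad2 was at 124 and 1419 CPM (3.10, 2.96 to 3.23) and was found in 439 of 2256 and 96 of 183 cells, and Ifit1 was at 17.5 and 50.6 CPM. Isg15, at 546 and 1063 CPM (0.54, 0.41 to 0.68), did not pass 2-fold on this scale.

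Among specific granule genes, Lcn2, the siderophore-binding lipocalin, was lower, at 9473 and 2947 CPM (-2.10, -2.18 to -2.02), and without the granule-gene cells it was at 9180 and 1228 CPM. The list that Lcn2 leads was lower in the other classes as well. It summed to 11503 and 2242 CPM in Retnlg-low cells and to 938 and 159 CPM in cells under the S100 limit. Empty droplets held it at 4539 and 195 CPM, and the part of free RNA was not tested. Ltf, Camp, Ngp and Chil3 were higher by CPM, and these are the genes of the 4 cells. Camp was at 94.2 and 1818 CPM in all cells and at 7.02 and 2.45 CPM without those with 10 or more granule-gene UMIs, and Ngp at 407 and 2718 CPM and then at 85.6 and 17.1 CPM. Without the same cells Ltf stayed higher, at 17.9 and 34.2 CPM (14 UMIs in anti-CD3L1), and Chil3 was at 0.92 and 2.45 CPM. Of 7 gelatinase granule and secretory vesicle genes 3 were lower, Fpr1, Fpr2 and the metal ion transporter Slc11a1 (-1.47), while the gelatinase Mmp9 itself was at 373 and 497 CPM (0.00, -0.20 to 0.19). Their list summed to 2538 and 1756 CPM in the Retnlg-high cells and to 930 and 333 CPM in cells under the S100 limit. The stefin genes Stfa2 (-1.50) and Stfa2l1 (-1.81), cysteine protease inhibitors, were lower and share sequence with near copies, so their UMIs are uncertain. The transcription factor gene Cebpb was at 3304 and 1611 CPM (-1.45, -1.56 to -1.35). Of 8 transcription factors tested Cebpb was lower and Cebpe higher, the latter on UMIs of 3 cells, and by CPM alone 2 were higher and 1 lower. Of 11 mature neutrophil transcripts Wfdc21 alone passed 2-fold, lower, and of 7 apoptosis genes Fas alone did, lower, at 405 and 229 CPM (-1.24, -1.54 to -0.96), whereas by CPM alone 2 of the 7 were higher and none lower. Among all 2437 genes 8.29% were higher and 8.33% lower, or 19.1% and 4.27% by CPM alone. With such shares, counts of 1 or 2 genes in lists this short are not read as results about the lists. The 7 cell cycle genes summed to 7.04 and 61.6 CPM and were too low to test. In anti-CD3L1 their sum was uneven, at 199, 0, 25.2 and 0 CPM from the bottom to the top of the 4 Retnlg groups. Of 12 tumor neutrophil genes tested 3 were lower, Nos2, Ptgs2 and Hilpda, or 2 by CPM alone. Cd274, which encodes PD-L1, was at 658 and 812 CPM (-0.11, -0.27 to 0.04) and the receptor gene Tnfrsf23 at 225 and 420 CPM (0.48, 0.26 to 0.69).

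Beyond the lists, the lowest ratio belonged to a gene that was also lower in other cells. Saa3, an acute-phase serum amyloid, was at 2975 CPM in 1255 of the control IgG cells and at 13.2 CPM, or 6 UMIs, in anti-CD3L1 (-8.23, -9.68 to -7.11). In Retnlg-low cells it was at 11425 and 91.9 CPM, in cells under the S100 limit at 5451 and 74.2 CPM, and in empty droplets at 6248 and 62.3 CPM. Csf3, the gene of G-CSF, gave 1392 UMIs in control IgG and none in anti-CD3L1, where 3 UMIs would be 6.60 CPM, so it was at least 24.2-fold lower relative to the median. Nos2, the inducible nitric oxide synthase, was at 192 and 11.003 CPM, on 5 UMIs in anti-CD3L1, and F3, tissue factor, at 139 and 4.40 CPM, on 2 UMIs, with a relative log2 interval from -8.44 to -3.54. Ntng2, Lipg, 1600014C10Rik and Gm15987 were lower by relative log2 ratios between -3.55 and -3.06. The rises among the genes of at least 100 CPM included Ly6e, a GPI-anchored surface protein, at 29.9 and 202 CPM (2.34, 1.99 to 2.68), and Tns1, the focal adhesion protein tensin-1, at 12.7 and 106 CPM (2.64, 2.14 to 3.12). Ly6c2 was at 24.9 and 277 CPM beside 320 and 438 CPM in cells under the S100 limit. Gde1, Reps2, Gm26917 and 4930523C07Rik were further genes with high ratios.

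**Figure D5:**
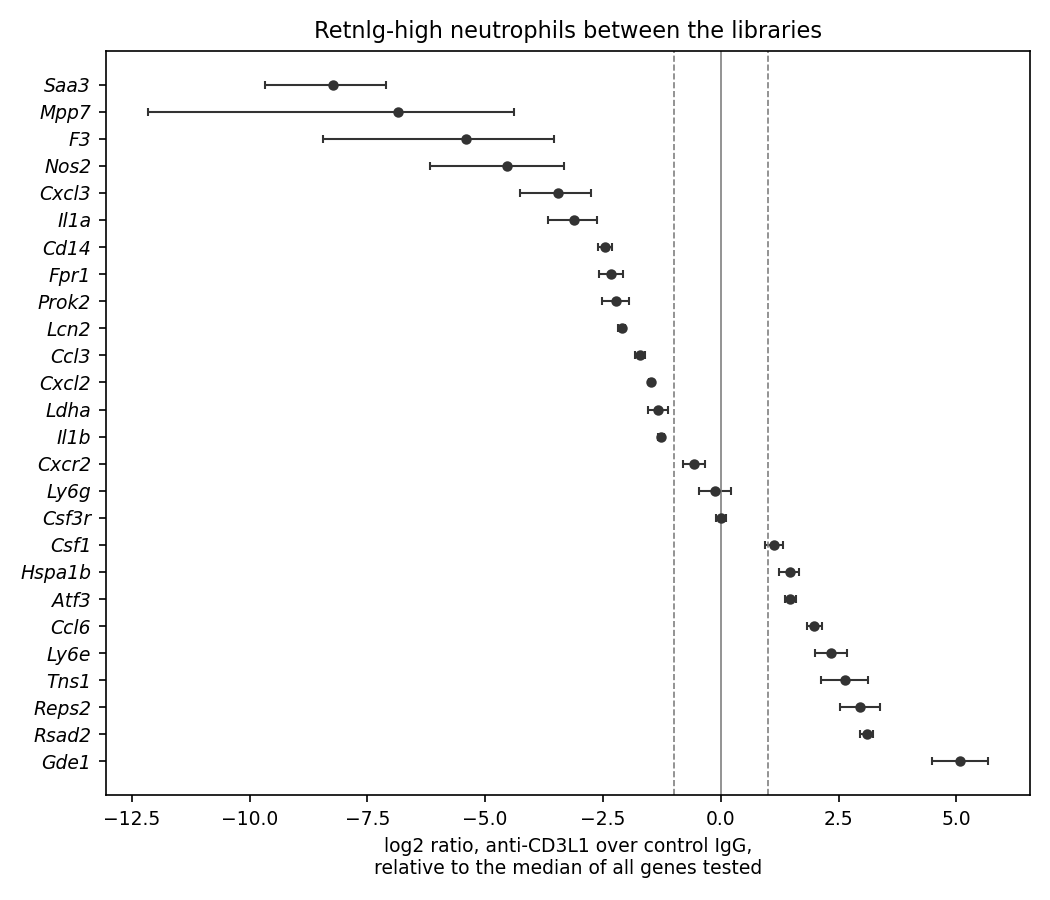
Anti-CD3L1 against control IgG in Retnlg-high neutrophils, as log2 ratios relative to the median of all 2437 genes (x axis), for 26 genes, with exact 95% intervals that cover counting error only. Dashed lines mark 2-fold, with Saa3 at -8.23 at one end, Gde1 at 5.07 at the other, and Csf3r and Ly6g at or near the median.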

How the data were processed

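Single-cell RNA was measured in CD45+ cells of 2 libraries, control IgG and anti-CD3L1. The values are UMI counts of each gene, deposited by the authors for every barcode with no cell call. The submitters' processing notes name Cell Ranger 7.1.0, Seurat 5.1.0 and GRCm39. Age, dose and schedule come from the study's methods. GRCm39 annotation was not used here, so genes carry no coordinates, and promoter windows are RefSeq sequence of GRCm38.p6, in which 5 of 5 genes looked up were matched. Windows were shortened where GENCODE M21 annotates an exon, and that of Camp was then too short to show. A deposited table of the authors' own macrophage comparison (log2 fold changes, p-values and shares of cells) was not used. Some genes of the lists are not reported here.

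Barcodes were filtered as given at the start of the results. No doublet caller was run, and an alternative left out the 5% of cells with the most UMIs. For each library and class, counts were added over cells and scaled to CPM. Intervals at 95% come from the exact Poisson distribution for CPM, from the exact binomial for shares and ratios, and from Newcombe's method for differences of shares. A gene called higher or lower differed at least 2-fold and had at least 50 CPM in either library or class. A count of 0 was given the limit of 3 counts. Where 2 gene identifiers carry 1 symbol (Aldoa, Ddit3) their UMIs were added. Named genes are the 8 of the rule, 30 gene lists, the 15 most abundant genes, the 12 highest and lowest of each comparison among genes with at least 100 CPM, and the 10 highest and lowest across the 4 Retnlg groups, within-library comparisons being ranked by the smaller log2 ratio of the 2 libraries. Genes singled out beyond that were chosen after their values were seen. The cells, the lists and the tests were chosen with earlier results of these data known. Alternatives changed the limits of the rule, depth, scaling, cell weights, free RNA and the minimum CPM, and those on Csf1r, on applying the rule after thinning and on granule-gene cells were added after the data were seen. Calculations used Python 3.11.15, numpy 2.4.6, scipy 1.17.1, pandas 2.3.3 and matplotlib 3.10.9, and were tested on simulated data.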

Additional observations from a re-analysis of the deposited data

How the results depend on the processing

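The share of Retnlg-high neutrophils was lower in anti-CD3L1 under all 12 alternatives. Its difference was -22.3 points with S100a8 and S100a9 at 10% or more, -27.6 and -20.5 with Retnlg at 0.05% and 0.2%, -27.8 with mitochondrial UMIs under 2%, -23.5 without the 5% deepest cells, -20.0 without cells holding other types' markers, -36.6 and -32.7 with any number or at most 1 of Csf1r UMIs, and -40.4 when the rule was applied after thinning. Genes past 2-fold between the libraries numbered 202 higher and 203 lower with the median ratio set to 1, 965 and 177 at 20 CPM, 118 and 46 at 200 CPM and 4353 and 404 with 1 UMI. Between Retnlg-high and Retnlg-low cells, 10 were higher with Retnlg at 0.2% and 9 without granule-gene cells. Lower there were 4 with S100 at 10%, 8 with S100 out of the total and 5 at the median scaling. At 20 CPM they were 31 higher and 32 lower, and at 200 CPM 5 and 1. Across the 4 Retnlg groups the counts were 7 and 17 with S100 at 5%, 7 and 8 at 10%, 27 and 22 with S100 out of the total, 24 and 78 at 20 CPM and 8 and 11 at 200 CPM, with 23 higher by cell means and 13 lower by the median scaling. Without thinning the differences in detection were -11.9 points for Ly6g, -19.1 for Cxcr2, -17.2 for Ngp and -3.35 for Csf3r, which reversed. The log2 CPM ratios of Camp, Ngp, Cebpe and Ltf between the libraries reversed without the deepest 5% of cells (-4.38, -3.80, -0.24 and -0.12). Those of Camp and Ngp reversed without cells holding other types' markers (-2.33 and -5.62), those of Camp, Ngp and Cebpe without granule-gene cells (-1.52, -2.32 and -0.13), and that of H2-Ab1 when free RNA was subtracted (-0.61). Without a reversal, the ratio moved by more than its counting interval for 102 of 196 named genes without cells holding other types' markers, for 105 of 198 with S100 at 10%, for 143 of 198 at the median scaling and for 0 to 70 under the others. Except where the alternative itself removed the cells or genes concerned, the cause was not tested. No paired analysis was possible because each treatment is 1 library. With 454404 UMIs in the anti-CD3L1 cells, against 11645622 in control IgG, 3 UMIs correspond to 6.60 CPM, and levels below it rest on 1 or 2 UMIs. In a single Retnlg group of anti-CD3L1, which holds fewer UMIs, 3 UMIs stand for a higher CPM.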

Other observations

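A few genes were abundant in 1 library and nearly undetected in the other, across cell classes. BC018473 gave 1 UMI in the 2256 Retnlg-high neutrophils of control IgG and 926 UMIs in 134 of the 183 of anti-CD3L1, or 2038 CPM. In Retnlg-low cells it was at 0 and 3051 CPM and in cells under the S100 limit at 0.03 and 34.5 CPM. Mpp7, a scaffold protein of cell junctions, went the other way, with 2226 UMIs in control IgG and 1 UMI in anti-CD3L1 (191 and 2.2007 CPM), and stood at 203 and 1.92 CPM in cells under the S100 limit. Tpd52l1 gave 1176 UMIs and none, and in cells under the S100 limit 79.8 and 0.81 CPM. The cause was not tested.

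Cd3d, a chain of the T cell receptor complex, was at 34.004 CPM in the Retnlg-high neutrophils of control IgG and at 81.4 CPM in those of anti-CD3L1, against 2.44 and 3.15 CPM in cells under the S100 limit and 7.38 and 2.08 CPM in empty droplets. It was found in 299 and 27 cells. Cd3e had no UMI in either library's Retnlg-high cells, and Cd3g had 5 and 0 UMIs. From the bottom to the top Retnlg group the log2 ratio of Cd3d was 1.97 in control IgG and 0.09 in anti-CD3L1.

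The iron storage genes differed in direction. Fth1, the ferritin heavy chain, was at 50292 and 34998 CPM, a relative log2 ratio of -0.94 (-0.96 to -0.92), and Ftl1, the light chain, at 6287 and 14234 CPM (0.76, 0.72 to 0.80). In cells under the S100 limit Fth1 was at 20505 and 16104 CPM and Ftl1 at 7051 and 8257 CPM. Both have near-identical copies in the genome, so their counts are uncertain.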
